A study of Mus musculus with 6 samples.

Results

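The genes described here encode 5 classes of protein that recognise splice sites and assemble the spliceosome. They were taken from the deposited expression table by gene name: the SR proteins (Srsf followed by a number), the hnRNP proteins (Hnrnp), the Sm and U1 or U2 snRNP proteins (Snrp), the subunits of splicing factor 3 (Sf3a and Sf3b) and the U2 auxiliary factor (U2af). Of 23060 rows, 55 carried such a name, namely 11 SR, 20 hnRNP, 12 Sm and snRNP, 9 SF3 and 3 U2AF genes. The rule reads gene names alone. The RNA is labelled as that of HL-1 cells, derived from mouse atrial muscle, genotype WT, kept in Claycomb medium with serum and norepinephrine. There are 3 control libraries and 3 from tachypaced cells, that is, cells driven electrically at a high rate to mimic the beating of a fibrillating atrium. Pacing rate and duration, and whether replicates were separate cultures, are not stated in the labels, so the p-values refer to the spread among libraries and may measure technical variation alone.

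Introns are removed by the spliceosome, which is built on each transcript from small nuclear RNAs wrapped in proteins (snRNPs). The heterodimer of U2AF reads the 3′ splice site, SF3a and SF3b hold the U2 snRNP on the branch site, and the Sm proteins form a ring around the spliceosomal snRNAs other than U6. SR proteins bind exonic enhancers and mostly promote the use of nearby splice sites, while many hnRNP proteins bind silencers and oppose it. Most of these genes are expressed in every cell type, and several regulate their own transcripts by splicing in an exon that carries a stop codon.

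The libraries lacked most transcripts that define cardiomyocytes. Of 16 cardiomyocyte markers 15 had a mean below 1 FPKM, and 8 of them, among them Myh6, Actc1, Myl7 and Nkx2-5, were listed at 0 throughout, while macrophage markers such as Cd68 and Lyz2 were abundant. FPKM summed over 12 macrophage markers ran from 1090 to 1260 in control and from 1392 to 1551 in tachypaced libraries, with C1qa, C1qb and Mrc1 at 0. By the test described below (limma, adjusted p below 0.05), 3 of 8 tested markers rose (Lyz2, Cd14 and Ctss), against 2.30% of all tested genes. Fibroblast markers had a mean below 1 FPKM in 8 of 8 genes and endothelial markers in 6 of 7. FPKM summed over 12 proliferation genes ran from 468 to 646 in control and from 405 to 427 in tachypaced libraries. By the same test 6 of the 12 fell, against 3.22% of all tested genes. None of the 6 RNA quality genes listed was in the table. Control replicate 1 correlated across genes at 0.993, 0.992 and 0.995 with tachypaced replicates 1 to 3, and at 0.992 and 0.990 with control replicates 2 and 3. These values lie close together. Correlations among the other libraries are not given here, so whether this library alone stood apart is not shown. Its proliferation sum of 468 was the lowest and its macrophage sum of 1260 the highest among the controls. Whether samples or labels were exchanged before deposit was not tested, and the groups are those of the labels. The part of these shifts in the results below was not tested, and in bulk RNA fewer cells of a type and less RNA per cell cannot be told apart.

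A total of 4 members passed the test described next, and the sequences upstream of their starts are shown so that these genes can be located and compared. The sequences are from RefSeq on GRCm38.p6 and run 5′ to 3′ on the strand of the gene, up to the base before the RefSeq transcript start (Srsf4, chr4:131873387-131873636, plus strand; Sf3a1, chr11:4160104-4160353, plus strand; Sf3b1, chr1:55027479-55027728, minus strand; Snrpf, chr10:93589707-93589908, minus strand). Where several starts are listed the first was taken, and GENCODE sets the start earlier: the last 20 bases for Srsf4, 4 for Sf3a1, 3 for Sf3b1 and 48 for Snrpf lie inside its gene. More than 20 such bases were not printed, which shortened the Snrpf window from 250 to 202 bases. Capitals mark 3 motifs, searched on either strand. The GC box was searched as GGGCGG. The second motif was the CCAAT box, with those letters. The ETS-like motif was searched as CCGGAAG.
Srsf4: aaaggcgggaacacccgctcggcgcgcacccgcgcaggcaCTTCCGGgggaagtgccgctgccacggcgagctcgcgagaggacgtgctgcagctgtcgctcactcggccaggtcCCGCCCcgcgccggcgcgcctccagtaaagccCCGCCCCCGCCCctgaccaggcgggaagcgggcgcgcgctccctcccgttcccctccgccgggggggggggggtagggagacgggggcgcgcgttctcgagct
Sf3a1: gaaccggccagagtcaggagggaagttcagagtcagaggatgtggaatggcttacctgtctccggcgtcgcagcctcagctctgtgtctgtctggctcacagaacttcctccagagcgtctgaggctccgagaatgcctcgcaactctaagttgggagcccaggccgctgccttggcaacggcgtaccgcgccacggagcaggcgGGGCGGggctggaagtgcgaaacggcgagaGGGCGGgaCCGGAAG
Sf3b1: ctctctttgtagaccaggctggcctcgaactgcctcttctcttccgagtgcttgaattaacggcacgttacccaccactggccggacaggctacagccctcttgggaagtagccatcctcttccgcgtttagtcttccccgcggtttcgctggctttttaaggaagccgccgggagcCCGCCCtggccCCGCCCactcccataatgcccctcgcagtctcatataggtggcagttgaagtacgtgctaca
Snrpf: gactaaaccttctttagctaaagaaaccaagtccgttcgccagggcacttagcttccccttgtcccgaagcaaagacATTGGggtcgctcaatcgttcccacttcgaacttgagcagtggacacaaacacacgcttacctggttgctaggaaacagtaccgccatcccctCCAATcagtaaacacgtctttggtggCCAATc
A GC box was found in the windows of Srsf4, Sf3a1 and Sf3b1, with 3, 2 and 2 matches, and an ETS-like motif in those of Srsf4 and Sf3a1. The Snrpf window had 3 CCAAT boxes and neither of the other motifs. Windows of 250 bases were found for 48 of the 55 members. A GC box was present in 33 of these 48 (68.8%), against 32.9% of 27025 gene windows and 61.8% of 8024 windows of genes tested here. An ETS-like motif was present in 15 (31.3%), against 7.05% and 15.8%, and a CCAAT box in 22 (45.8%), against 34.5% and 37.5%. An E-box (CACGTG) occurred in 3 member windows (6.25%, against 6.05% and 8.97%) and a TATA motif (TATAAA) in 5 (10.4%, against 13.0% and 5.72%). These matches are a description of the letters in the windows.

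Of the 53 members that could be tested, 3 fell in the tachypaced libraries, namely Srsf4, Sf3a1 and Sf3b1, and 1 rose, the Sm ring gene Snrpf. The test was limma on log2(FPKM + 1) over the 10361 genes whose mean reached 1 FPKM, with Benjamini-Hochberg adjustment over all of them and a threshold of 0.05. Over all tested genes 2.30% passed as higher and 3.22% as lower, 5.52% together, and the 4 of 53 members (7.55%) lie near that share. The 2 members not tested were Srsf12, at 0.0110 FPKM in control replicate 3 and listed at 0 elsewhere, and Snrpn, listed at 0 in every library. Groups did not overlap in 14 of the 53 members (26.4%), with 5 higher and 9 lower, against 34.9% of all tested genes (12.6% higher and 22.4% lower). At an unadjusted p below 0.05 there were 4 members higher and 12 lower, against 10.8% and 19.4% of all tested genes, 30.2% together. With scaling by median of ratios Snrpf alone passed, and with quantile normalization 0 members did. Without control replicate 1, 13 members fell and 3 rose, 30.2% together, against 18.8%, 11.2% and 30.0% of all genes tested then, and without any 1 of the other 5 libraries 0 passed in either direction (3 to 5 members higher and 7 to 10 lower at an unadjusted p below 0.05, limma, against 763 to 958 and 1197 to 1782 of all genes).

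**Figure D1:**
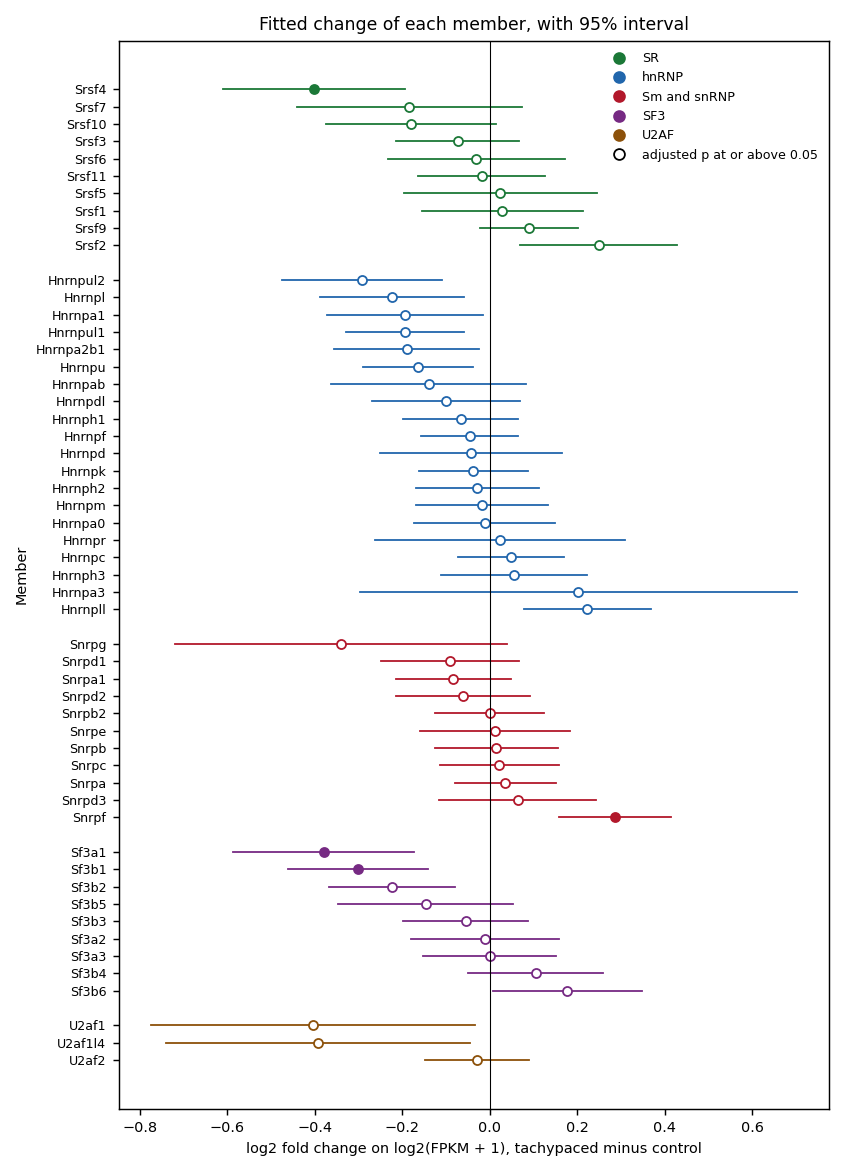
Fitted log2 fold change of each of the 53 tested members (x axis, tachypaced minus control on log2(FPKM + 1)), grouped by class, with bars for the 95% confidence interval. Filled points mark the 4 members past the adjusted p threshold of 0.05: Srsf4, Sf3a1 and Sf3b1 lie to the left of 0 and Snrpf to the right.

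Levels differed between the classes. Over the members tested, the median of the gene means was 64.1 FPKM for hnRNP, 47.6 for Sm and snRNP, 34.9 for SR, 27.1 for U2AF and 22.4 for SF3 genes, against 10.7 over all tested genes. FPKM is scaled to transcript length, but the length used for each gene is not known here, so levels of different genes compare only roughly. The highest member was Hnrnpc, at a mean of 235 FPKM over the 6 libraries, and the lowest tested was U2af1l4, at 3.72. All 55 members together made up 0.709% to 0.811% of the summed FPKM of a library. Their sum was 3059, 3236 and 3381 FPKM in the control libraries and 3072, 3065 and 3117 FPKM in the tachypaced libraries, so control replicate 1 lay below all others.

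**Figure D2:**
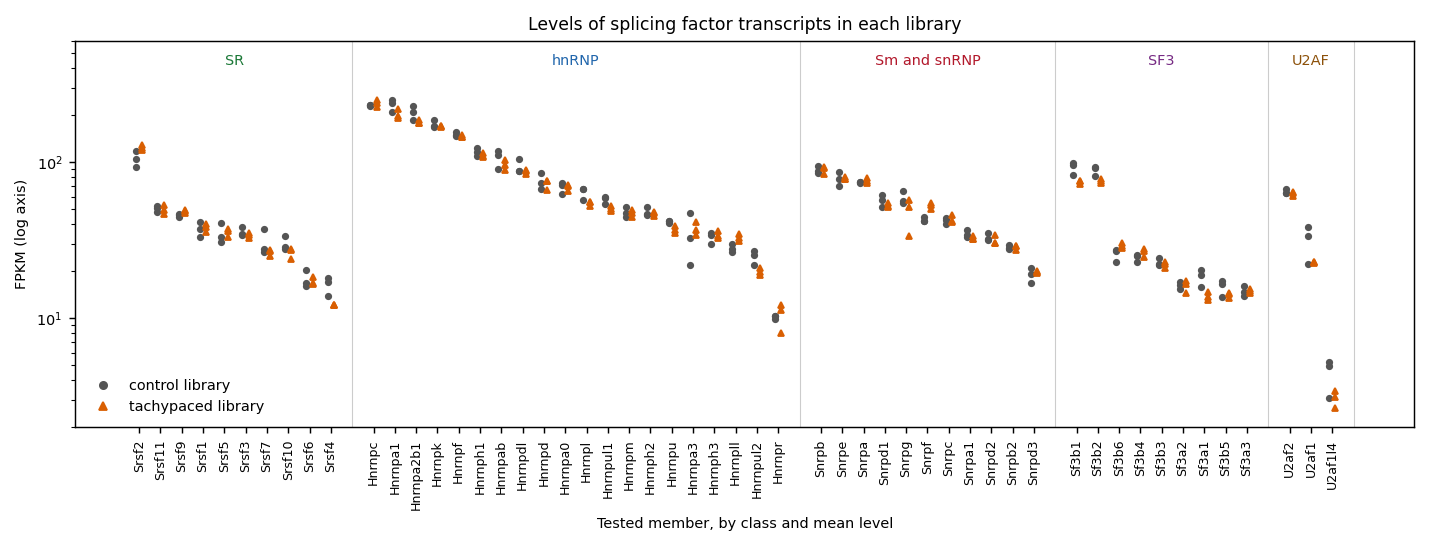
FPKM (y axis, log scale) of the 53 tested members in each library, ordered by class and mean level. Circles are the 3 control and triangles the 3 tachypaced libraries; hnRNP genes reach the highest levels, with Hnrnpc at a mean of 235 FPKM, and U2af1l4 the lowest, at 3.72.

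The median log2 fold change was -0.03 for SR, -0.04 for hnRNP, 0.01 for Sm and snRNP, -0.06 for SF3 and -0.39 for U2AF genes, against -0.04 over all tested genes. More members had a negative than a positive change in 4 of the classes (6 of 10 SR, 15 of 20 hnRNP, 7 of 9 SF3 and 3 of 3 U2AF genes), and 5 of 11 Sm and snRNP genes did, against 58.9% of all tested genes. Within each library the class median, set against the control mean of each gene, overlapped between the groups in all 5 classes. For hnRNP genes it was -0.05, -0.0036 and 0.09 in control replicates 1 to 3 and -0.08, -0.03 and -0.06 in the tachypaced libraries. For SF3 genes it was -0.09, 0.04 and 0.08 and then -0.14, -0.12 and 0.0016. For U2AF genes it was -0.38, 0.12 and 0.15 and then -0.36, -0.41 and -0.27, so here control replicate 1 lay among the tachypaced libraries. Control replicate 1 was nearer to the tachypaced mean than to the mean of the other controls in 42 of 53 members (79.2%), in all 9 SF3 and all 3 U2AF genes among them, against 58.7% of all tested genes. Leaving out such a control widens the difference, so for such genes fits without control replicate 1 are no separate support.

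**Figure D3:**
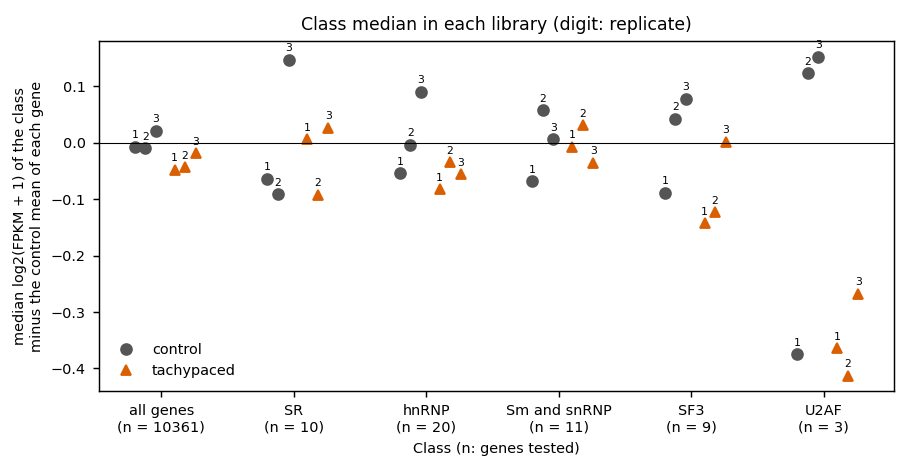
Median over the genes of each class of log2(FPKM + 1) minus the control mean of the gene (y axis), in each library, with all 10361 tested genes for comparison. Circles are control and triangles tachypaced libraries, with the replicate number above each; for U2AF genes control replicate 1 sits at -0.38, beside the tachypaced libraries at -0.36, -0.41 and -0.27.

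Among the 9 SF3 genes 2 fell, 1 of SF3a and 1 of SF3b, and 0 rose, against 3.22% lower and 2.30% higher over all tested genes. Both calls lay close to the threshold, and neither passed with scaling by median of ratios. Sf3a1, the SF3a subunit that joins the complex to U2 snRNP (chromosome 11, 4160350 to 4182541, GRCm38, ENSMUSG00000002129.11), stood at 15.8, 18.8 and 20.3 FPKM in control and 13.0, 13.6 and 14.6 FPKM in tachypaced libraries. On the log2 scale it fell by 0.38 (SE 0.09, adjusted p = 0.0484, limma). Every tachypaced library lay below every control library, with control replicate 1 nearest to them. Sf3b1, the large scaffold of SF3b that clamps the branch site helix (chromosome 1, 54985169 to 55027481, ENSMUSG00000025982.13), stood at 82.8, 96.0 and 98.8 FPKM in control and 76.1, 72.2 and 75.8 FPKM in tachypaced libraries. It fell by 0.30 (SE 0.07, adjusted p = 0.0473, limma), again with no overlap. Sf3b2, which binds the pre-mRNA next to the branch site, stood at 81.1, 91.7 and 93.1 and at 73.3, 77.8 and 75.8 FPKM. Its log2 fold change of -0.22 (SE 0.06) did not pass (adjusted p = 0.0656, limma), though its groups did not overlap. Sf3b6, the small subunit that contacts the branch site adenosine, stood at 27.4, 27.0 and 22.9 FPKM in control and 29.1, 30.4 and 28.1 FPKM in tachypaced libraries, higher in all 3 but not past the threshold (log2 fold change 0.18, SE 0.08, adjusted p = 0.154, limma).

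The other 5 SF3 genes had log2 fold changes from -0.15 (Sf3b5) to 0.10 (Sf3b4), with adjusted p from 0.286 to 0.997. For Sf3a3, for example, the mean was 14.9 FPKM in both groups and the 95% interval of the log2 fold change ran from -0.15 to 0.15. Summed over the 9 genes, SF3 FPKM was 299, 328 and 331 in control and 282, 289 and 290 in tachypaced libraries, without overlap. Sf3b1 and Sf3b2 weigh most in this sum, at means of 83.6 and 82.1 FPKM over all libraries, against 27.5 for the next, Sf3b6. The sum therefore mostly repeats these 2 genes, and the class median overlapped between the groups. Leaving out control replicate 1, 4 of 9 SF3 genes fell (Sf3a1, Sf3b1, Sf3b2 and Sf3b5) and 0 rose, against 18.8% and 11.2% of all genes tested then. This control was nearer to the tachypaced mean than to the other controls in all 9 genes. Leaving it out widens the difference, so this fit is no separate support. The ratio of Sf3b1 to Sf3b6, which does not depend on how a library is scaled, was 3.02, 3.55 and 4.31 in control and 2.62, 2.37 and 2.69 in tachypaced libraries, and that of Sf3a1 to Sf3a3 was 1.13, 1.27 and 1.26 and then 0.852, 0.939 and 0.982. These gene pairs were chosen after their values were seen, so the ratios carry no test.

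Over the 9 SF3 genes the log2 fold change ran against the length of the longest annotated protein-coding transcript, with a Spearman rho of -0.90, and -0.87 without control replicate 1. Sf3b1 has 6195 bases, Sf3a1 4920 and Sf3b6 1180. With coding length the rho was -0.58; Sf3b5, for example, has a coding part of 258 bases in a transcript of 3841. Over all 53 members the rho with transcript length was -0.14, over SR genes -0.27, over hnRNP genes 0.21, over Sm and snRNP genes 0.14 and over the 9783 tested genes with a length -0.16. These are correlations across genes of the same 6 libraries, which are not independent replicates. The length the authors used in FPKM is not known here. A length fixed for a gene largely cancels in its fold change, but whether it was the same in every library is not stated.

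**Figure D4:**
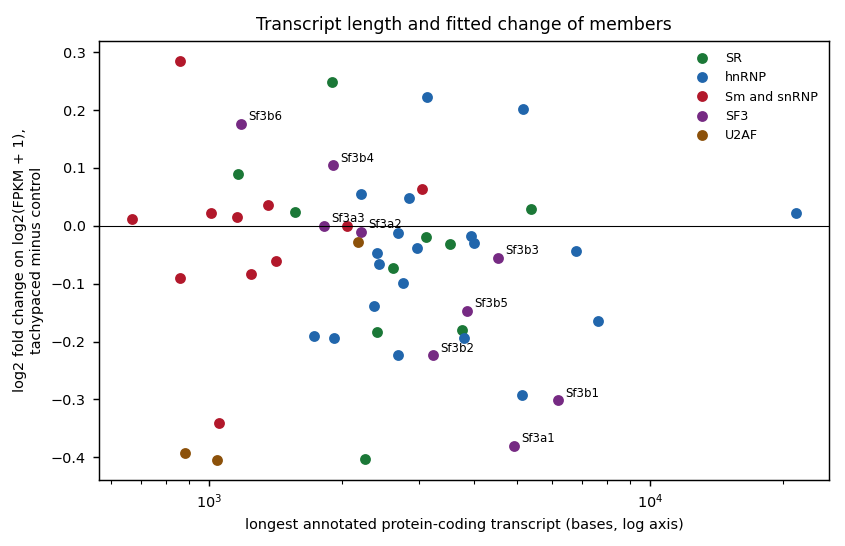
Length of the longest annotated protein-coding transcript (x axis, bases, log scale) against the fitted log2 fold change (y axis) of the 53 tested members, 1 point per gene, coloured by class. The 9 SF3 genes, labelled, run from Sf3b6 at upper left to Sf3b1 and Sf3a1 at lower right (rho -0.90), while all members together show a rho of -0.14.

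Among the 10 tested SR genes, Srsf4 fell and Srsf2 was higher without passing. Over all tested genes 3.22% fell. Srsf4, a large SR protein with a long arginine and serine rich tail (chromosome 4, 131873617 to 131901706, ENSMUSG00000028911.16), stood at 13.9, 17.1 and 18.2 FPKM in control and at 12.1 FPKM in each of the 3 tachypaced libraries. It fell by 0.40 (SE 0.09, adjusted p = 0.0460, limma), and the tachypaced values had an SD of 0.0170 FPKM against 2.23 in control. The lowest control, replicate 1, still lay above all tachypaced libraries. The call of Srsf4 too lay close to the threshold, and it did not pass with scaling by median of ratios. Srsf5 and Srsf6, which share with Srsf4 a pair of RNA recognition motifs, stood at 34.9 ± 5.18 and 35.3 ± 2.16 FPKM and at 17.7 ± 2.26 and 17.2 ± 1.02 FPKM (SD, n = 3 each), and their values overlapped between groups.

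Srsf2, the SR protein known as SC35 that marks nuclear speckles, was the most abundant SR transcript. It stood at 117, 93.2 and 104 FPKM in control and 129, 120 and 124 FPKM in tachypaced libraries. The groups did not overlap, yet the log2 fold change of 0.25 (SE 0.08) did not pass (adjusted p = 0.0821, limma). It did without control replicate 1, the control nearest to the tachypaced libraries (0.33, adjusted p = 0.00508, limma). In that fit 11.2% of all genes tested passed as higher. The ratio of Srsf2 to Srsf4 was 8.43, 5.45 and 5.74 in control and 10.7, 9.97 and 10.3 in tachypaced libraries. This pair too was chosen after its values were seen.

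Srsf9, Srsf11, Srsf3 and Srsf7 showed smaller differences. Srsf9, a short SR protein, stood at 44.5, 45.5 and 46.3 FPKM in control and 47.4, 48.7 and 49.1 FPKM in tachypaced libraries, a narrow separation that did not pass (log2 fold change 0.09, SE 0.05, adjusted p = 0.247, limma). Srsf11, which binds the 3′ splice site region, stood at 47.6, 51.0 and 52.0 and at 49.1, 46.6 and 53.0 FPKM, with overlapping groups. Srsf3 and Srsf7 are close relatives that also act in mRNA export. Srsf3 stood at 34.6, 34.2 and 38.2 and at 34.0, 32.5 and 35.0 FPKM, and Srsf7 at 26.6, 27.6 and 37.2 and at 25.0, 26.9 and 27.3 FPKM. In both the groups overlapped, and control replicate 3 was the highest library. Srsf1, the founding member of the class, stood at 37.2 ± 3.89 and 37.9 ± 2.28 FPKM, and its 95% interval ran from -0.16 to 0.21. Srsf10, a splicing repressor when dephosphorylated, stood at 29.9 ± 3.03 and 26.3 ± 2.19 FPKM (adjusted p = 0.192, limma). Its highest tachypaced value, 27.74 FPKM, lay just below its lowest control value, 27.80 FPKM. Over the SR class the groups did not overlap in 4 of 10 genes (40.0%), 2 higher and 2 lower. The share over all tested genes was 34.9%, with 12.6% higher and 22.4% lower. Srsf4 fell and Srsf2 rose without control replicate 1, and the other 8 tested SR genes did not pass. Of all genes tested then, 18.8% fell and 11.2% rose.

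Of 20 hnRNP genes 0 passed in either direction by limma, and at an unadjusted p below 0.05 there were 6 lower and 1 higher, against 19.4% and 10.8% of all tested genes. Hnrnpul2, a nuclear scaffold protein of the hnRNP U family, stood at 21.8, 25.2 and 26.8 FPKM in control and 19.6, 19.0 and 21.0 FPKM in tachypaced libraries (log2 fold change -0.29, SE 0.08, adjusted p = 0.0617). Its relative Hnrnpul1 stood at 54.1, 59.8 and 59.0 and at 48.3, 49.99 and 52.4 FPKM (-0.19, adjusted p = 0.0760). Hnrnpu itself, which binds RNA and chromatin, stood at 42.1, 40.4 and 41.8 and at 36.9, 35.2 and 38.6 FPKM (-0.16, adjusted p = 0.0917). All 3 members of this family were lower in every tachypaced library than in any control library, without passing the threshold by limma. Over the hnRNP class the groups did not overlap in 5 of 20 genes (25.0%), 4 of them lower. The share over all tested genes was 34.9%, with 22.4% lower.

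Hnrnpl and Hnrnpll, a pair of related proteins that bind CA-rich RNA, had changes of opposite sign. Hnrnpl stood at 57.1, 67.3 and 67.4 FPKM in control and 55.7, 52.1 and 55.6 FPKM in tachypaced libraries (log2 fold change -0.22, SE 0.07, adjusted p = 0.0851, limma). Hnrnpll, known as a regulator of Ptprc (CD45) splicing in lymphocytes, stood at 29.8, 27.8 and 26.5 and at 34.7, 32.5 and 31.4 FPKM (0.22, SE 0.06, adjusted p = 0.0676, limma). In neither gene did the groups overlap. The ratio of Hnrnpll to Hnrnpl was 0.521, 0.414 and 0.394 in control and 0.622, 0.625 and 0.564 in tachypaced libraries, a pair fixed by its kinship but described with its values known. Without control replicate 1 Hnrnpl fell (adjusted p = 0.00347) and Hnrnpll rose (adjusted p = 0.0116, both limma). Of all genes tested then, 18.8% fell and 11.2% rose.

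The A/B proteins, which coat nascent RNA and bind UAGGG-like sites, were among the most abundant members. Hnrnpa1 stood at 209, 239.7 and 249.4 FPKM in control and 198, 220 and 191 FPKM in tachypaced libraries (adjusted p = 0.136, limma). Hnrnpa2b1 stood at 187, 208 and 228 and at 178, 179 and 187 FPKM (adjusted p = 0.122, limma). In both, control replicate 1 lay within the range of the tachypaced values. Without it both fell (adjusted p = 0.0155 and 0.00843, limma), as did 18.8% of all genes tested then. Leaving out such a control widens the difference, so this fit is no separate support. Hnrnpa0 stood at 62.6, 73.7 and 71.8 and at 64.9, 69.8 and 71.3 FPKM, with full overlap. Hnrnpa3 had widely spaced controls, at 32.6, 47.2 and 21.8 FPKM, against 34.0, 36.8 and 41.5 FPKM in tachypaced libraries, so that its interval ran from -0.30 to 0.70. Several of these genes have near-identical processed copies in the genome, and reads could have been divided between copies in a way that the table does not show.

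Hnrnpc, which binds uridine tracts and keeps cryptic exons out, was the most even of the abundant genes in control, at 232, 231 and 229 FPKM, and stood at 251, 226 and 240 FPKM in tachypaced libraries. Its log2 fold change was 0.05 with a 95% interval from -0.07 to 0.17. The F/H proteins, which bind G-rich runs, overlapped between groups in all 4 genes. Hnrnpf stood at 148, 148 and 157 and at 145, 149 and 145 FPKM. Hnrnph1 stood at 116, 109 and 124 and at 109, 110 and 114 FPKM. Hnrnph2 stood at 45.5, 46.3 and 51.7 and at 45.4, 47.9 and 47.1 FPKM, and Hnrnph3 at 33.9, 29.8 and 35.1 and at 33.7, 32.5 and 36.4 FPKM. The fitted changes of these 4 ran from -0.07 to 0.05. The other 6 hnRNP genes (Hnrnpab, Hnrnpd, Hnrnpdl, Hnrnpk, Hnrnpm and Hnrnpr) had log2 fold changes from -0.14 to 0.02 and adjusted p from 0.364 to 0.921. In all, 6 hnRNP genes fell and 1 rose when control replicate 1 was left out, 35.0% together against 30.0% of all genes tested then.

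In the Sm ring, 1 of 7 tested subunits rose while the rest did not pass, and over all tested genes 2.30% rose. Snrpf, which encodes SmF (chromosome 10, 93583029 to 93589706, ENSMUSG00000020018.6), stood at 42.2, 44.5 and 41.6 FPKM in control and 49.8, 54.4 and 52.8 FPKM in tachypaced libraries. It rose by 0.29 on the log2 scale (SE 0.06, adjusted p = 0.0435, limma), and here control replicate 1 lay between the other controls. This call too lay close to the threshold, and its adjusted p by limma reached 0.173 among the alternatives. The proteins SmE and SmG join SmF in an assembly intermediate. Snrpe, for SmE, stood at 69.8, 86.7 and 78.3 and at 80.6, 77.3 and 78.0 FPKM. Snrpg, for SmG, stood at 55.0, 65.6 and 55.9 and at 56.8, 33.5 and 51.4 FPKM, with tachypaced replicate 2 far below the rest (log2 fold change -0.34, SE 0.17, adjusted p = 0.203, limma). Without that library the Snrpg value was -0.12.

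Snrpb, for SmB, was the most abundant of the class, at 84.6, 88.3 and 93.9 FPKM in control and 84.1, 93.4 and 92.1 FPKM in tachypaced libraries. Its neuronal counterpart Snrpn was listed at 0 throughout, as was Snurf, which shares its transcript. Snrpd1, Snrpd2 and Snrpd3 stood at 56.7, 33.0 and 18.9 FPKM in control, so transcripts of proteins that enter the ring in equal number had unlike FPKM. The part of the length used for each gene in this was not tested. Their fitted changes were -0.09, -0.06 and 0.06. Of the proteins particular to U1 snRNP, Snrpa stood at 72.9, 75.0 and 75.1 and at 73.4, 79.2 and 76.1 FPKM, and Snrpc had a log2 fold change of 0.02. Of the U2 proteins, Snrpa1 had a change of -0.08 and Snrpb2 stood at 28.5 FPKM in both groups, and none of these 4 passed (adjusted p from 0.354 to 0.995, limma). Without control replicate 1 Snrpf was still the only 1 of 11 to pass, against 30.0% of all genes tested then.

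Of the 3 U2AF genes 0 passed by limma, and 2 had an unadjusted p below 0.05, both lower, against 19.4% of all tested genes. U2af1, the small subunit that reads the AG of the 3′ splice site (chromosome 17, 31647081 to 31658892, ENSMUSG00000061613.13), stood at 22.1, 33.3 and 38.6 FPKM in control and 22.9, 22.7 and 22.9 FPKM in tachypaced libraries. Control replicate 1 lay below every tachypaced library. The log2 fold change was -0.40 (SE 0.16, adjusted p = 0.136, limma), close to that of Srsf4, and without that library it was -0.63 (adjusted p = 0.000770, limma). Leaving out a control that lies with the tachypaced libraries widens the difference, and 18.8% of all genes tested then fell. U2af1l4, a shorter relative of U2af1, stood lower, at 3.09, 5.19 and 4.90 and at 3.12, 2.63 and 3.41 FPKM, with control replicate 1 among the tachypaced values (-0.39, adjusted p = 0.127, and -0.58 with adjusted p = 0.00406 without control replicate 1). U2af2, the large subunit that binds the polypyrimidine tract, stood at 63.1, 63.1 and 67.0 and at 60.9, 63.7 and 64.7 FPKM, with a 95% interval from -0.15 to 0.09. The ratio of U2af1 to U2af2 was accordingly 0.350, 0.528 and 0.576 in control and 0.376, 0.356 and 0.354 in tachypaced libraries.

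**Figure D5:**
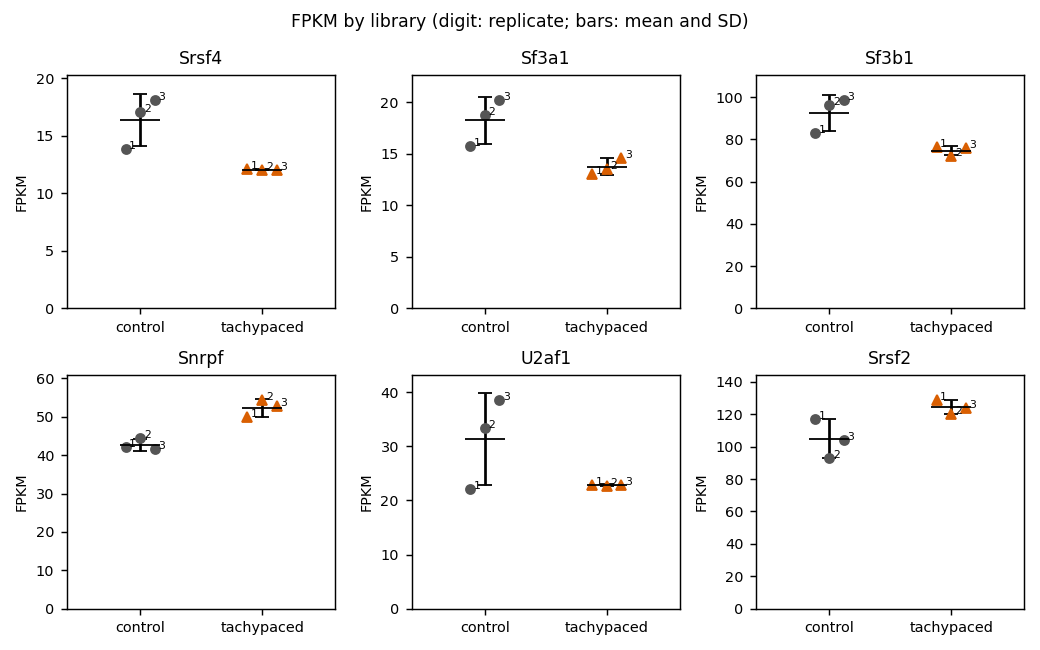
FPKM (y axis, from 0) in the 3 control and 3 tachypaced libraries for the 4 members past the threshold (Srsf4, Sf3a1, Sf3b1, Snrpf) and for U2af1 and Srsf2, with the replicate number beside each point and bars for the mean and SD. Control replicate 1 is the lowest control for Srsf4, Sf3a1, Sf3b1 and U2af1, and for U2af1, at 22.1 FPKM, it lies below every tachypaced library.

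The remaining splicing machinery was read from 9 lists of 180 other genes, also chosen with results known, of which 172 could be tested. Of these 10 fell and 2 rose (6.98%, against 5.52% of all tested genes), with a median log2 fold change of -0.09 against -0.04 over all tested genes. Groups did not overlap in 63 of the 172 (36.6%, against 34.9% of all tested genes). The lowest medians were those of the lists for U1, U4/U6, U5 and minor snRNP proteins (-0.17 over 26 genes) and for the Prp19 complex and catalytic step proteins (-0.17 over 28 genes). In the former 4 fell and 0 rose, and all 4 encode U5 or tri-snRNP proteins. Prpf8, the scaffold of the catalytic centre, stood at 56.9, 59.7 and 63.4 FPKM in control and 49.7, 50.3 and 52.0 FPKM in tachypaced libraries (log2 fold change -0.24, adjusted p = 0.0479, limma). Snrnp200, the helicase that unwinds U4 from U6, fell from 25.7 ± 0.969 to 20.03 ± 0.763 FPKM. Eftud2, the GTPase of U5, fell from 24.9 ± 2.84 to 18.3 ± 0.735 FPKM, and Prpf6, which bridges U5 to U4/U6, from 16.6 ± 1.43 to 13.2 ± 0.495 FPKM (SD, n = 3 each).

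In the Prp19 and catalytic list 3 fell and 0 rose: Snw1, which holds the catalytic core together (22.05 ± 3.63 to 15.5 ± 0.123 FPKM), the helicase gene Dhx38 (11.4 ± 1.81 to 8.13 ± 0.245 FPKM) and the intron-binding Aqr (8.44 ± 0.773 to 6.11 ± 0.194 FPKM). Groups did not overlap in 17 of its 28 genes (16 lower) and in 14 of the 26 genes of the snRNP list (12 lower), that is in 60.7% and 53.8%, against 34.9% of all tested genes, 22.4% lower. Of 10 kinases, phosphatase regulators and importers of SR proteins 1 fell, Tnpo3, which carries SR proteins into the nucleus (25.6 ± 2.46 to 19.7 ± 1.21 FPKM). Of 20 SR-related genes 1 fell, Pnn. Of 32 other hnRNP-like regulators 1 rose, Ewsr1 (59.01 ± 2.77 to 73.9 ± 3.83 FPKM). In the exon junction and export list Magohb rose and Thoc3 fell among 19 genes. Over all tested genes 3.22% fell and 2.30% rose. By limma 0 passed among 10 Lsm ring genes, 13 branch site genes and 14 snRNP assembly genes, where 3, 3 and 4 had an unadjusted p below 0.05, against 30.2% of all tested genes. Without control replicate 1, 50 of the 172 fell and 6 rose, 12 and 1 in the snRNP list and 14 and 0 in the Prp19 list, against 18.8% lower and 11.2% higher over all genes.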

How the data were processed

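Total RNA was made into libraries with a SMARTER mRNA kit, per the labels' protocols. The deposited table holds FPKM, a fragment count divided by transcript length and library total, for 23060 gene names in 6 libraries. The genome build named is GRCm38 (mm10), per the submitters' processing notes. Aligner, quantifier, annotation and strandedness: not given in the sources used here. Columns were matched to samples by the labels' descriptions. The FPKM of a library summed to between 411050 and 432244. Ratios of low values did not gather on steps (at most 3.16% in a bin of 0.05 log2 units), so depth is unknown and no counting interval is given.

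Values were tested as log2(FPKM + 1), a scale that understates the change of low genes, with limma 3.58.1 in R 4.3.3 (trend, two-sided, no covariates) on the genes whose mean reached 1 FPKM. The steps were tested on simulated data, with planted changes larger than the change of any member in the main fit. That run therefore does not cover changes of the size reported for the members. For 3 against 3 the smallest exact permutation p is 0.1, so none is reported. Alternatives were another pseudocount and filters, scalings, variance models, library weights, a threshold of 0.1, a replicate block and leaving out each library. Gene positions and lengths came from GENCODE M21 by symbol, and upstream sequences from RefSeq. Python 3.11.15 with pandas 2.3.3 and matplotlib 3.10.9 made tables and figures.

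Members and lists were chosen with earlier results of these data known. Named with all values were members past the threshold, the 3 highest in level and the 2 with the largest change of each class, and related pairs. Of the lists, genes past the threshold were named.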

Additional observations from a re-analysis of the deposited data

How the results depend on the processing

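Counts are given as higher and lower at an adjusted p of 0.05 by limma, first for all tested genes (238 and 334), then for the members (1 and 3), then for the other splicing lists (2 and 10). Without a filter on low values they were 0 and 0, 0 and 0, and 0 and 0 (unadjusted p below 0.05: 1457 and 2031, 4 and 9, 6 and 44). With scaling by median of ratios they were 268 and 180, 1 and 0, and 3 and 4 (members at an unadjusted p below 0.05: 10 lower), and with quantile normalization 13 and 4, 0 and 0, and 0 and 0 (members unadjusted: 4 and 11; lists: 11 and 38). Rescaled to a common total they were 250 and 922, 1 and 7, and 2 and 25, and without the variance trend 2 and 0, 0 and 0, and 0 and 0 (members unadjusted: 3 and 11; lists: 5 and 45). With library weights they were 1154 and 1942, 3 and 13, and 7 and 54, and at a threshold of 0.1 724 and 1250, 3 and 8, and 5 and 29. Leaving out 1 library at a time gave 1 to 1160 and 0 to 1948 for all genes, 0 to 3 and 0 to 13 for members, and 0 to 6 and 0 to 50 for the lists, and the highest value of each came without control replicate 1. The cause of these shifts was not tested. For median of ratios, quantile normalization and no variance trend, counts over all genes at an unadjusted p are not given here. The member and list counts at an unadjusted p in those settings therefore have no share beside them. In the main fit that share was 30.2% of all tested genes. The number of members higher at an unadjusted p by median of ratios is not given either. A pseudocount of 0.1, a minimum mean of 5 FPKM and robust variance estimation left the member counts at 1 and 3.

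The labels do not state whether replicate numbers pair the libraries. Same-numbered libraries correlated at 0.0615, -0.0340 and 0.157 in their deviations from the group means. The last, for replicates 3, was the highest of all pairs, but not every library correlated best with its own number. With 3 libraries a group, whose deviations sum to 0, these values cannot decide on pairing. With a replicate block 334 genes were higher and 591 lower, 2 members higher and 4 lower, and 2 list genes higher and 19 lower.

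Srsf4, Sf3a1, Sf3b1 and Snrpf kept their direction in all alternatives, with adjusted p from 0.000954 to 0.173 for Srsf4, 0.00206 to 0.173 for Sf3a1, 0.00127 to 0.175 for Sf3b1 and 0.00747 to 0.173 for Snrpf. By median of ratios the adjusted p was 0.0518 for Srsf4, 0.0547 for Sf3a1 and 0.0594 for Sf3b1. Among 900 pairs of member and alternative, 67 changed sign with neither value past the threshold. With 3 libraries a group and unknown depth, small differences were not detectable.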
